A study of Mus musculus with 12 samples.

Results

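The genes described here are 7 members of the MHC class II presentation machinery of the mouse: H2-Aa, H2-Ab1, H2-Eb1, Cd74, H2-DMa, H2-DMb1 and Ciita. They were picked by name from the 47359 gene rows of a bulk RNA sequencing table of sorted T cells, with no use of their measured values, and all 7 have a row with values in every one of the 12 libraries. All 7 passed the filter on low counts, but Ciita passed it only through the DKO libraries, where it was highest, and would not have with the WT libraries alone. On the GRCm38 (mm10) assembly, 5 of the 7 sit in the H2 region of chromosome 17, from H2-DMa (start 34119541, plus strand) through H2-DMb1 (34153072 to 34160230, plus strand), H2-Ab1 (34257689 to 34269419, plus strand) and H2-Aa (34282744 to 34287823, minus strand) to H2-Eb1 (34305867 to 34316674, plus strand). Ciita lies on chromosome 16 (10480059 to 10528418, plus strand) and Cd74 on chromosome 18.

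Class II molecules are pairs of an alpha and a beta chain that display peptides of taken-up protein to CD4+ T cells. H2-Aa and H2-Ab1 encode the alpha and beta chain of the I-A molecule, and H2-Eb1 the beta chain of I-E. Cd74, the invariant chain, guards the peptide groove of new molecules, the DM pair (H2-DMa with H2-DMb1 or its close copy H2-DMb2) swaps the last piece of the invariant chain for peptide, and the DO pair (H2-Oa, H2-Ob) holds DM back. Ciita is the coactivator that switches the set on: it does not bind DNA itself but docks on RFX, CREB and NF-Y factors seated on the X and Y boxes of class II promoters, and interferon gamma is its best known inducer. The machinery is typical of dendritic cells, B cells and activated macrophages and microglia, whereas mouse T cells are usually described as making little of it.

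The cells came from the central nervous system (CNS) of RAG2-/- mice, which cannot build T or B cells of their own but keep their myeloid and other innate cells, at the peak of experimental autoimmune encephalomyelitis (EAE), in which T cells attack myelin. Each host had received TH17 cells labelled 2D2, which names a receptor transgene specific for a myelin protein (MOG). The 4 groups were 2D2-IL-17A/F-DKO CXCR6+ cells (DKO CXCR6+, 1 library), 2D2-IL-17A/F-DKO SLAMF6+ cells (DKO SLAMF6+, 1 library), 2D2-WT CXCR6+ cells (WT CXCR6+, 5 libraries) and 2D2-WT SLAMF6+ cells (WT SLAMF6+, 5 libraries), where DKO stands for loss of both Il17a and Il17f. Every library was made from 1000 sorted living cells. No source used here gives the ages of the mice, their number or whether each replicate number marks its own mouse, so p-values measure only the spread between these libraries, which may be technical.

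Library totals were 8552216 counts in DKO CXCR6+, 8285134 in DKO SLAMF6+, 6818658 to 8710148 in WT CXCR6+ and 8134987 to 11635037 in WT SLAMF6+. Il17a had 0 and 3 counts in the DKO libraries against 1622 to 4751 in the 10 WT libraries, and Il17f had 1 count in each DKO library against 174 to 1458. Trbv16, the segment of the 2D2 beta chain, made up 9.96% of all Trbv counts in DKO CXCR6+ (9.45 to 10.5%, exact binomial 95% limits) and 6.51% (6.07 to 6.98%) in DKO SLAMF6+, against 99.61 to 99.81% in the WT libraries. The receptor of both DKO libraries thus goes against their 2D2 label, while Il17a and Il17f fit the DKO label. Haemoglobin genes took 11.9% of all counts in DKO SLAMF6+ (11.92 to 11.96%) and 0.000352% or less in every other library. Of the sorted markers, Cxcr6 had 382 CPM in DKO CXCR6+ and 162 in DKO SLAMF6+, against 4.34 to 42.9 in WT CXCR6+ and 11.4 to 19.2 in WT SLAMF6+, and did not pass between the WT subsets (log2 0.71, adjusted p = 0.251). Slamf6 had 75.8 CPM in DKO CXCR6+ and 258.9 in DKO SLAMF6+, against 1.69 to 5.02 in WT CXCR6+ and 5.90 to 11.0 in WT SLAMF6+ (log2 -1.35 between the WT subsets, adjusted p = 0.0047). Each DKO library thus held more of the other subset's marker than any WT library of that subset. WT CXCR6+ replicate 3, with the 4.34 CPM of Cxcr6, lay below all 5 WT SLAMF6+ libraries, so WT CXCR6+ results are also given without it. Intervals cover counting error only.

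Promoter sequence was at hand for 4 of the 7 members (RefSeq windows on GRCm38.p6, 250 bases before to 50 after the start site). These are shown because the X and Y boxes are where the class II factors sit. Of the 3 genes below, H2-Aa and H2-Eb1 were higher in both DKO libraries and H2-DMb1 was not. Capitals mark matches, on either strand, to the X box core and to the Y box ATTGG; the X box core is the longer of the capital runs. Each line gives the 150 bases just before the start site, 5′ to 3′ on the gene's strand.
H2-Aa (GRCm38.p6, chr17:34287824-34287973, minus strand): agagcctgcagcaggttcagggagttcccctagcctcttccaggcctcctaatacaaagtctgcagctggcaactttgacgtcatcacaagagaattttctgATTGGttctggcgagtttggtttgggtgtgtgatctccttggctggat
H2-Eb1 (GRCm38.p6, chr17:34305717-34305866, plus strand): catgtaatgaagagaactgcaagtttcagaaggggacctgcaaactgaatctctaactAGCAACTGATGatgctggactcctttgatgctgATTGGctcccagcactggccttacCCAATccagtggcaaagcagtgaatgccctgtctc
H2-DMb1 (GRCm38.p6, chr17:34153041-34153190, plus strand): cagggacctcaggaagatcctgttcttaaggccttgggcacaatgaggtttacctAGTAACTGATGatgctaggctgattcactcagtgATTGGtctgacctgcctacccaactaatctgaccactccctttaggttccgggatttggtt

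The X box core began 92 bases before the start site of H2-Eb1 and 95 bases before that of H2-DMb1, with 22 and 23 bases between it and the Y box that follows. H2-Aa held the Y box (48 bases before the start) and no stretch spelled like this X box core. The 2 windows of H2-DMa, from 34122582 and from 34125268, lie inside an annotated gene span that runs to 34139101 and overlaps Brd2. Neither held the X box core and the one further into the gene held a Y box. Whether H2-DMa transcripts in these cells start at either window was not tested, so nothing is said of its promoter. Among all 32851 windows of this length, 0.968% held the X box core, 37.4% the Y box and 0.387% both. Of the other class II genes of the region, H2-Eb2 and H2-Oa held both boxes, and H2-DMb2 and H2-Ob the Y box alone. Both H2-Eb1, which was higher in the DKO libraries, and H2-DMb1, which was not, hold both boxes.

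Levels of different genes were compared as CPM (counts scaled to a common library size) per kilobase of the longest transcript in GENCODE's basic set. H2-Ab1 stood first in all 4 groups, with 86.1 CPM per kb in DKO CXCR6+, 499 in DKO SLAMF6+, a mean of 70.2 in WT CXCR6+ and 153 in WT SLAMF6+. Ciita stood last in all 4, at 0.346 and 0.771 CPM per kb in the DKO libraries and at means of 0.0525 in WT CXCR6+ and 0.0622 in WT SLAMF6+. Between these ends the order differed between the DKO and the WT libraries. In both DKO libraries H2-Aa, Cd74 and H2-Eb1 stood above H2-DMa and H2-DMb1. In both WT subsets the DM genes stood above H2-Aa and H2-Eb1, with ranges that did not meet: H2-DMb1 averaged 16.3 CPM per kb in WT CXCR6+ and 16.7 in WT SLAMF6+, H2-Eb1 averaged 2.55 and 6.67, and H2-Aa averaged 1.57 and 7.20. Neighbours in the WT order whose ranges met were H2-Ab1 and H2-DMa in WT CXCR6+, H2-Eb1 and H2-Aa in both subsets, Cd74 with H2-DMb1 in WT CXCR6+ and Cd74 with H2-DMa in WT SLAMF6+.

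The comparison of CXCR6+ with SLAMF6+ cells within WT asks how the subsets differ with the donor genotype held fixed. Of the 7 members, 5 were lower in WT CXCR6+ by the quasi-likelihood test of edgeR, with p-values adjusted by Benjamini-Hochberg over 21565 genes (threshold 0.05); in this comparison 33.3% of all genes passed, 17.7% as lower. The 5 were all 3 chain genes, the invariant chain and H2-DMa. The median log2 fold change was -1.13 over the members and 0.13 over all genes tested. In bulk libraries fewer cells that make a transcript and less transcript in each cell cannot be told apart.

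H2-Ab1, the I-A beta chain, had 84.6, 107, 51.6, 94.9 and 87.3 CPM in the 5 WT CXCR6+ libraries, against 201, 157, 190, 181 and 200 CPM in the 5 WT SLAMF6+ libraries. Every WT CXCR6+ value was below every WT SLAMF6+ value. Its log2 fold change was -1.13 (SE 0.16, adjusted p = 0.000333), a fall to 0.459 of the WT SLAMF6+ level.

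H2-Aa, the I-A alpha chain, stood far lower in both subsets, at 1.21, 0.658, 2.63, 3.69 and 0.669 CPM in WT CXCR6+ (6 to 37 counts) against 7.18, 10.2, 8.03, 5.35 and 9.79 CPM in WT SLAMF6+ (55 to 99 counts). The subsets did not overlap here either. The log2 fold change was -2.17 (SE 0.42, adjusted p = 0.0021), the largest fall among the members and, given the low counts, among the least precise.

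H2-Eb1, the I-E beta chain, had 4.34, 3.51, 2.51, 8.37 and 2.57 CPM in WT CXCR6+ and 13.5, 7.58, 11.2, 12.7 and 10.6 CPM in WT SLAMF6+. WT CXCR6+ replicate 4 reached past the lowest WT SLAMF6+ library, so these ranges met. The log2 fold change of -1.38 (SE 0.31) passed the test with an adjusted p of 0.00569; with a term for the mt-Ts1 split given further on it was -1.14 with an adjusted p of 0.0774.

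Cd74 showed the smallest adjusted p of the set. It had 29.3, 26.8, 28.6, 33.3 and 34.1 CPM in WT CXCR6+, against 93.4, 109, 101, 67.6 and 107 CPM in WT SLAMF6+, with no overlap. The log2 fold change was -1.65 (SE 0.13, adjusted p = 4.58e-06).

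H2-DMa averaged 81.9 ± 9.92 CPM in WT CXCR6+ and, in WT SLAMF6+, 126 ± 9.88 CPM (SD, n = 5 each), with ranges of 66.4 to 91.6 and 113 to 140 CPM that did not meet. It fell by 0.63 on the log2 scale (SE 0.09, adjusted p = 0.000347), less than 2-fold. Its locus overlaps Brd2 on the other strand and the libraries do not mark strand. Reads from sequence that both genes share thus cannot be told apart. Brd2 itself was higher in WT CXCR6+ (134 ± 16.4 against 97.8 ± 17.1 CPM, log2 0.45, edgeR adjusted p = 0.0142).

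H2-DMb1, the beta partner of H2-DMa, averaged 22.9 ± 5.59 CPM in WT CXCR6+ and, in WT SLAMF6+, 23.4 ± 2.93 CPM (SD, n = 5 each). The log2 fold change was -0.04 with a 95% interval of -0.40 to 0.33 and an adjusted p of 0.894, and its sign turned under other scalings. Reads of H2-DMb1 and H2-DMb2, near-identical neighbours, may be split uncertainly between them.

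Ciita was at the edge of detection in WT cells, with 1, 4, 5, 0 and 4 counts in the WT CXCR6+ libraries and 0, 7, 3, 1 and 5 counts in the WT SLAMF6+ libraries. These counts overlap fully. The log2 fold change was -0.20 with an interval of -2.55 to 2.14 (adjusted p = 0.908), so a difference in Ciita was not detectable at this depth.

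**Figure D1:**
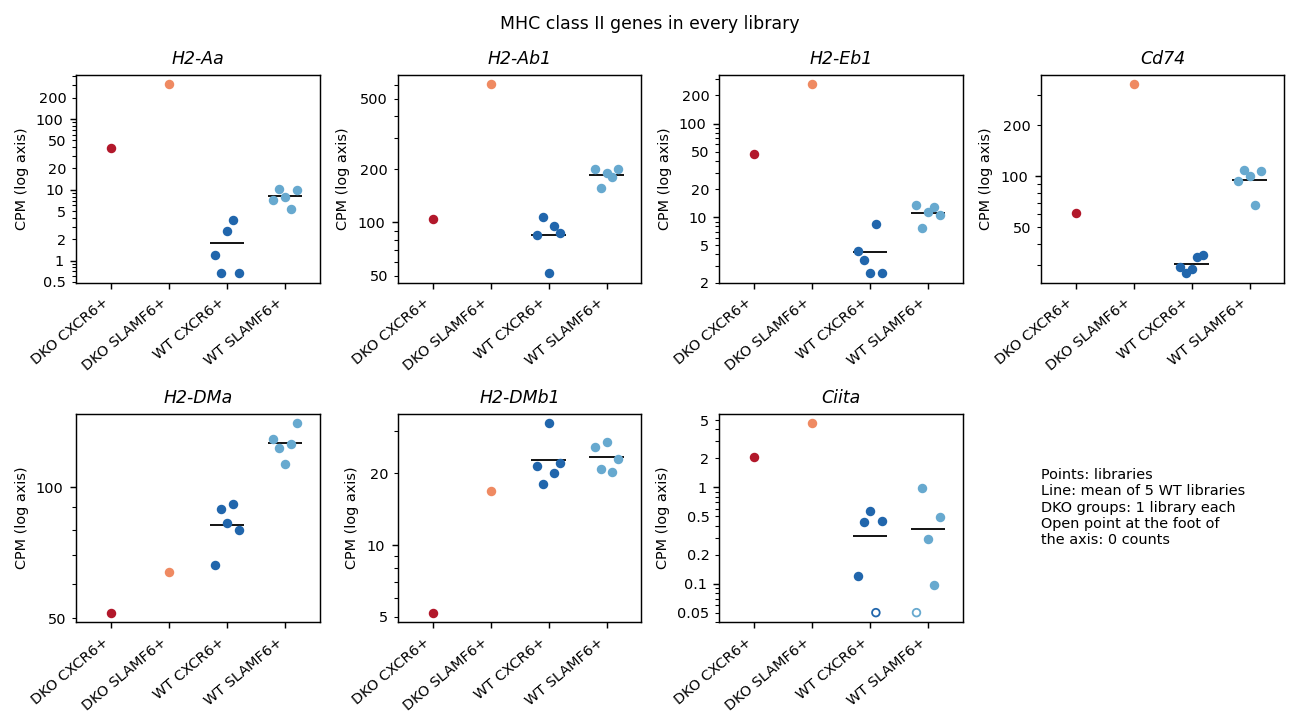
CPM of the 7 MHC class II genes in every library on log axes, with 1 point per library, a line at the mean of each WT subset and open points at the foot of the axis for libraries with 0 counts of Ciita. H2-Aa, H2-Eb1, Cd74 and Ciita stand above the WT libraries of the same subset in both DKO libraries, while H2-DMa and H2-DMb1 stand below them.

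Of the members, 4 had no overlap between the subsets with WT CXCR6+ below (H2-Aa, H2-Ab1, H2-DMa and Cd74), a pattern that 15% of all genes tested shared. Without WT CXCR6+ replicate 3 the same 5 members were lower (H2-Aa -2.34, H2-Ab1 -0.99, H2-Eb1 -1.24, H2-DMa -0.63 and Cd74 -1.63 on the log2 scale). The mitochondrial share of counts ran from 12.9 to 17.6% in WT CXCR6+ and from 2.20 to 5.24% in WT SLAMF6+, and its part in the result was not tested. The mitochondrial transfer RNA mt-Ts1 was at 0 counts in 1 WT CXCR6+ and 4 WT SLAMF6+ libraries and at 111496 to 357922 counts in the other WT libraries. Within the libraries at 0, the mean difference in log2(CPM + 1) was -1.93 for H2-Aa, -1.18 for H2-Ab1, -1.28 for H2-Eb1, -0.92 for H2-DMa and -1.60 for Cd74; within the others it was -2.10, -0.92, -0.84, -0.52 and -1.80 in the same order.

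DKO CXCR6+ against WT CXCR6+ sets cells without IL-17A and IL-17F beside their WT counterparts. A single DKO library stands on one side, so the test assumes that it varies like the WT libraries. Of the 7 members, 3 were higher (H2-Aa, H2-Eb1 and Cd74) and 2 lower (H2-DMa and H2-DMb1), where 28.7% of all genes passed, 12.8% as higher and 15.9% as lower. The median log2 fold change was 1.01 over the members and -0.22 over all genes. The members' median includes Ciita, which entered only through the DKO libraries, so it is a description and supports no difference.

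H2-Aa had 39.1 CPM in DKO CXCR6+ (95% Poisson interval 35.02 to 43.5) against a mean of 1.77 ± 1.34 CPM in WT CXCR6+ (SD, n = 5). H2-Eb1 had 47.4 CPM (42.9 to 52.2) against 4.26 ± 2.42 CPM. Both DKO values lay far above all 5 WT libraries, whose highest were 3.69 and 8.37 CPM. The log2 fold changes were 4.44 (SE 0.54, adjusted p = 0.000106) for H2-Aa and 3.46 (SE 0.43, adjusted p = 0.000118) for H2-Eb1.

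H2-Ab1, the most abundant member, had 104 CPM in DKO CXCR6+ (97.7 to 111) against 85.1 ± 20.6 CPM in WT CXCR6+, inside the WT range of 51.6 to 107 CPM. Its log2 fold change of 0.29 (interval -0.34 to 0.93) did not pass (adjusted p = 0.476). The I-A alpha chain was thus called higher in this library and the I-A beta chain was not.

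Cd74 had 61.2 CPM in DKO CXCR6+ (56.0 to 66.6) against 30.4 ± 3.16 CPM in WT CXCR6+, above all 5. It rose by a log2 fold change of 1.01 (SE 0.21, adjusted p = 0.0036), 2.01-fold.

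The DM genes went the other way. H2-DMa had 51.6 CPM in DKO CXCR6+ (46.9 to 56.6) against 81.9 ± 9.92 CPM in WT CXCR6+, a log2 fold change of -0.67 (SE 0.17, adjusted p = 0.0116) that was -0.32 (adjusted p = 0.124) with GC content and transcript length corrected for. H2-DMb1 had 5.20 CPM (3.79 to 6.96) against 22.9 ± 5.59 CPM, a log2 fold change of -2.13 (SE 0.33, adjusted p = 0.000614). Each DKO value was below all 5 WT values.

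Ciita had 18 counts in DKO CXCR6+ (2.08 CPM) against 0 to 5 counts in WT CXCR6+. It lay above all 5 WT libraries, yet the log2 fold change of 2.67 carried an interval of -0.61 to 5.96 and did not pass (adjusted p = 0.205; call gained by limma-voom, adjusted p = 0.0318). Since Ciita entered the test only through the DKO libraries, its place above the WT libraries and its p-values are a description and support no difference. Of the 6 other members, 3 were above every WT CXCR6+ library and 2 below, against 29.6% and 28.1% of all genes. Without WT CXCR6+ replicate 3 the same 5 members passed, with H2-Aa at 4.61, H2-Eb1 at 3.32 and H2-DMb1 at -1.98.

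DKO SLAMF6+ against WT SLAMF6+ gave larger rises. Of the 7 members, 4 were higher (H2-Aa, H2-Ab1, H2-Eb1 and Cd74) and 1 lower (H2-DMa), where 31.1% of all genes passed, 13.5% as higher and 17.5% as lower. The median log2 fold change was 1.87 over the members and -0.05 over all genes. The members' median includes Ciita here too, with the same limit. This comparison shares no library with the previous one, but both are read against the WT subsets that were compared above.

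H2-Aa had 313 CPM in DKO SLAMF6+ (299 to 326; 2158 counts) against 8.12 ± 1.99 CPM in WT SLAMF6+ (SD, n = 5), a log2 fold change of 5.27 (SE 0.50, adjusted p = 1.78e-05) or 38.6-fold. H2-Eb1 had 265 CPM (253 to 278) against 11.1 ± 2.30 CPM, a log2 fold change of 4.57 (SE 0.40, adjusted p = 1.15e-05) or 23.7-fold. These were the largest rises of the set in either subset, and the WT libraries, at most 10.2 and 13.5 CPM, were far below.

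H2-Ab1 had 604 CPM in DKO SLAMF6+ (586 to 623) against 186 ± 17.9 CPM in WT SLAMF6+, and its log2 fold change of 1.70 (SE 0.25, adjusted p = 0.000379) was smaller. Cd74 had 350 CPM (336 to 365) against 95.6 ± 16.8 CPM, a log2 fold change of 1.87 (SE 0.19, adjusted p = 3.12e-05). Both were above all 5 WT libraries.

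H2-DMa fell again, to 63.9 CPM in DKO SLAMF6+ (58.0 to 70.1) against 126 ± 9.88 CPM in WT SLAMF6+ (log2 -0.99, SE 0.17, adjusted p = 0.00126). H2-DMb1 had 16.9 CPM (14.0 to 20.3) against 23.4 ± 2.93 CPM, below all 5 WT libraries, but with a log2 fold change of -0.47 that did not pass (interval -1.13 to 0.20, adjusted p = 0.261).

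Ciita had 32 counts in DKO SLAMF6+ (4.63 CPM, 3.17 to 6.54) against 0 to 7 counts in WT SLAMF6+, above all 5. The log2 fold change of 3.62 (interval 0.46 to 6.78) did not pass (adjusted p = 0.0685), and over all alternatives the adjusted p ran from 0.00235 to 0.386. The limit given for Ciita in DKO CXCR6+ holds here too. Of the 6 other members, 4 stood above every WT SLAMF6+ library and 2 below every one, against 35.1% and 30.9% of all genes.

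**Figure D2:**
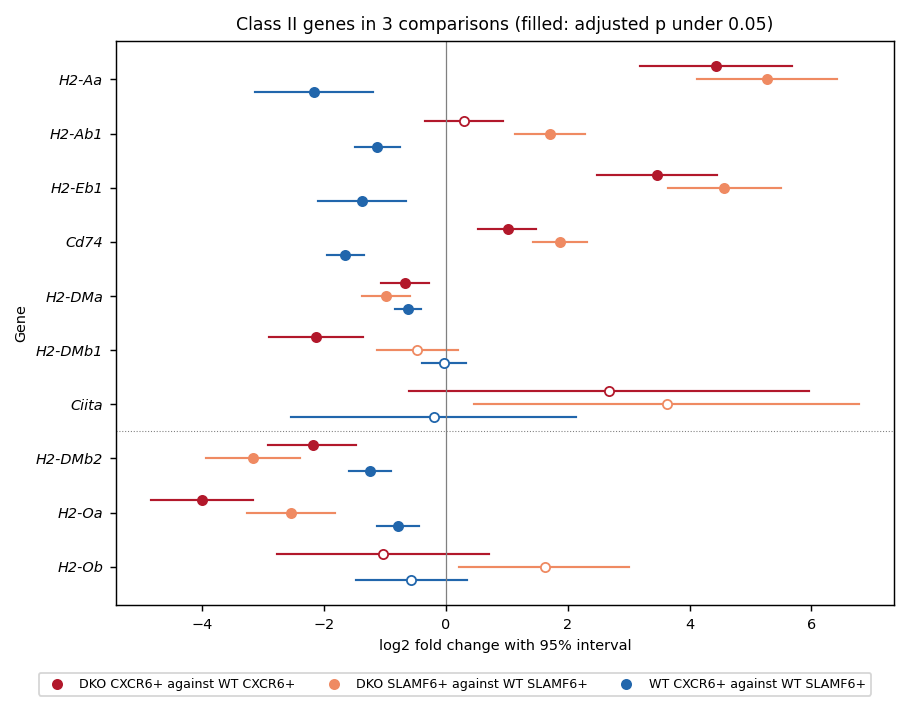
log2 fold changes with 95% intervals of the 7 members and, under the dotted line, 3 other class II genes of the H2 region, for DKO CXCR6+ against WT CXCR6+, DKO SLAMF6+ against WT SLAMF6+ and WT CXCR6+ against WT SLAMF6+; filled points passed at an adjusted p under 0.05. H2-Aa and H2-Eb1 lie between 3.46 and 5.27 in the DKO comparisons, while H2-DMa, H2-DMb2 and H2-Oa lie below 0 in all 3.

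Whether the genotype difference itself differed between the subsets was tested with the interaction term, for which 10.3% of all genes passed, 6.36% as higher and 3.94% as lower. H2-Ab1 (log2 -1.41, SE 0.40, adjusted p = 0.0499) and H2-DMb1 (-1.66, SE 0.41, adjusted p = 0.0272) passed, both with a lower genotype difference in CXCR6+ than in SLAMF6+. The other 5 did not, among them Cd74 (-0.87, adjusted p = 0.115) and H2-Aa (-0.83, adjusted p = 0.662). The H2-Ab1 call was lost without any one of the 9 WT libraries other than WT CXCR6+ replicate 3 (log2 -1.44 to -1.31). The H2-DMb1 call was lost under 5 of 27 alternatives, by limma-voom (adjusted p = 0.0846; 0.0781 with the random replicate block), with the mt-Ts1 term (0.0504) and without replicate 1 (0.0539) or 5 (0.0623) of both WT subsets. Without WT CXCR6+ replicate 3 the terms were -1.54 for H2-Ab1 and -1.51 for H2-DMb1.

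Side by side, all 7 members were lower in DKO CXCR6+ than in DKO SLAMF6+. With 1 library a side this has no replicate check and no test. Ciita entered only through these DKO libraries, so its ratio is a description and supports no difference. The log2 ratios were -2.99 for H2-Aa, -2.53 for H2-Ab1, -2.51 for Cd74, -2.48 for H2-Eb1, -1.66 for H2-DMb1, -1.08 for Ciita and -0.31 for H2-DMa. Over all genes tested 45.2% had a ratio below 0 and 16.5% were lower by more than 2-fold, as were 6 of the members. The summed CPM of the members was 311 in DKO CXCR6+, 1618 in DKO SLAMF6+, 201 to 252 in WT CXCR6+ and 413 to 492 in WT SLAMF6+.

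The balance between the I-A chains also differed between the DKO and the WT libraries. The DKO libraries differ in receptor and in markers of other cells as well, which cannot be told apart from genotype here. Per kilobase, H2-Ab1 exceeded H2-Aa by a ratio of 2.49 in DKO CXCR6+ and 1.80 in DKO SLAMF6+. In WT CXCR6+ the ratio was 65.2, 151, 18.3, 23.97 and 121, and in WT SLAMF6+ it was 26, 14.3, 22, 31.5 and 19. Every WT library thus held at least 14.3 times as much beta as alpha chain transcript per kilobase, and neither DKO library did; the WT CXCR6+ ratios rest on 6 to 37 H2-Aa counts.

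Of the counts of the 3 chain genes, H2-Ab1 supplied 54.7% in DKO CXCR6+ (52.3 to 57.1%, exact binomial 95% limits) and 51.1% (50.04 to 52.2%) in DKO SLAMF6+, against 88.7 to 96.4% in WT CXCR6+ and 89.8 to 90.9% in WT SLAMF6+. The invariant chain kept closer to H2-Ab1. Cd74 per kilobase was 0.504 and 0.498 of H2-Ab1 in DKO CXCR6+ and DKO SLAMF6+, 0.215 to 0.475 in WT CXCR6+ and 0.321 to 0.594 in WT SLAMF6+, so that the DKO SLAMF6+ value was inside the range of its WT subset and the DKO CXCR6+ value just above that of WT CXCR6+. H2-DMa over H2-DMb1 was 6.94 in DKO CXCR6+ and 2.64 in DKO SLAMF6+, 1.79 to 3.45 in WT CXCR6+ and 2.93 to 4.33 in WT SLAMF6+.

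**Figure D3:**
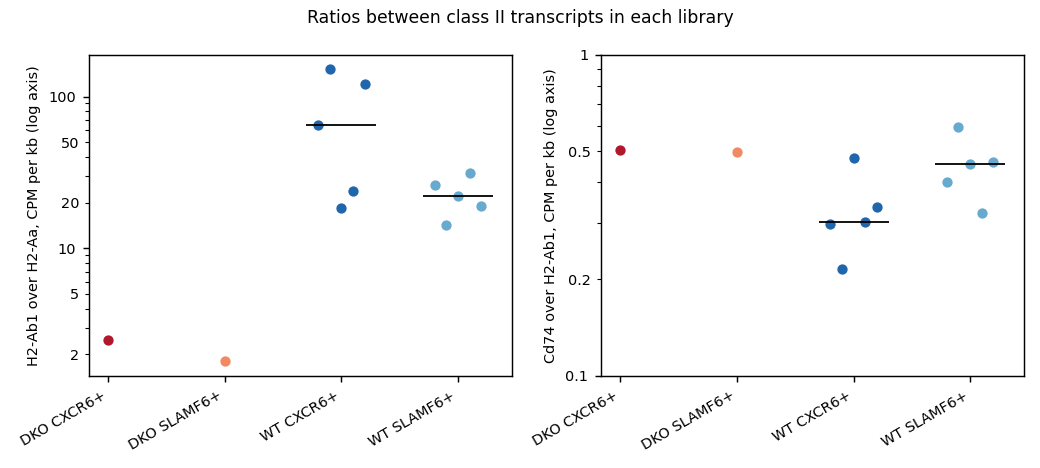
Ratio of H2-Ab1 to H2-Aa (left) and of Cd74 to H2-Ab1 (right), each as CPM per kilobase, in every library on log axes, with a line at the median of each WT subset. The DKO libraries sit at 2.49 and 1.80 on the left, under the lowest WT library at 14.3, and at 0.504 and 0.498 on the right, among the WT values.

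Among the other class II genes of the H2 region, H2-DMb2 and H2-Oa went against H2-Aa and H2-Eb1 in the DKO comparisons. Within WT they went the same way. H2-Ea, an alpha chain locus, is annotated in GENCODE M21 as a polymorphic pseudogene (H2-Ea-ps), and H2-Eb2 is a beta chain gene. Both had at most 2 counts in any library and were not tested. H2-DMb2 had 3.12 CPM in DKO CXCR6+, 3.76 in DKO SLAMF6+, 14.3 ± 2.96 in WT CXCR6+ and 34.0 ± 3.88 in WT SLAMF6+; it was lower in DKO CXCR6+ (log2 -2.19, adjusted p = 0.00034), in DKO SLAMF6+ (-3.17, adjusted p = 3.72e-05) and, within WT, in CXCR6+ (-1.25, adjusted p = 7.72e-05). H2-Oa, the DO alpha chain, had 3.47, 16.5, 55.6 ± 13.9 and 96.2 ± 4.87 CPM in the same order of groups. It was lower in DKO CXCR6+ (-4.00, adjusted p = 1.24e-05), in DKO SLAMF6+ (-2.54, adjusted p = 0.000121) and in WT CXCR6+ (-0.79, adjusted p = 0.0017), the last of which was -0.16 (adjusted p = 0.459) once GC content and transcript length were corrected for.

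H2-Ob, the DO beta chain, had 1.97 CPM in DKO CXCR6+ and, in DKO SLAMF6+, 18.4 CPM, against 2.17 to 7.48 CPM in WT CXCR6+ and 3.99 to 10.8 CPM in WT SLAMF6+. None of its 3 fold changes passed (adjusted p = 0.371, 0.0657 and 0.288 for the DKO CXCR6+, DKO SLAMF6+ and WT comparison). In both DKO libraries the DM genes H2-DMa and H2-DMb2 were thus lower while the chain genes H2-Aa and H2-Eb1 were higher.

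Of the 7 tested genes of the DNA-binding factors through which Ciita acts, 2 were higher (Creb1 and Nfyc) and 1 lower (Nfyb) in DKO CXCR6+, where 28.7% of all genes passed. In DKO SLAMF6+ 1 was lower (Nfyb), and within WT 1 was higher in CXCR6+ (Rfxap), where 31.1% and 33.3% of all genes passed. Nfyb, a subunit of the Y box factor NF-Y, had 21.9 CPM in DKO CXCR6+ and 22.9 in DKO SLAMF6+, against 49.8 ± 10.3 in WT CXCR6+ and 60.9 ± 8.25 in WT SLAMF6+ (log2 -1.19 and -1.41, adjusted p = 0.00947 and 0.00386). Creb1 had 27.7 CPM in DKO CXCR6+ against 13.9 ± 3.21 in WT CXCR6+ (log2 1.00, adjusted p = 0.0174). Rfxap, a subunit of the X box factor RFX, averaged 7.35 ± 2.34 CPM in WT CXCR6+ and 4.398 ± 0.927 in WT SLAMF6+ (log2 0.74, adjusted p = 0.0494), a call lost under 18 of 27 alternatives, and Nfyc missed the threshold there (log2 -0.38, adjusted p = 0.05002).

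Of the 9 genes of the interferon gamma pathway that leads to Ciita, 4 were higher and 3 lower in DKO CXCR6+. In DKO SLAMF6+ 3 were higher and 4 lower. Over all genes, 28.7% passed in DKO CXCR6+ and 31.1% in DKO SLAMF6+. Ifngr1, the ligand-binding chain of the receptor, rose to 338 CPM in DKO CXCR6+ against 42.7 ± 9.56 in WT CXCR6+ (log2 2.98, adjusted p = 1.41e-06) and to 216 CPM in DKO SLAMF6+ against 69.5 ± 1.77 in WT SLAMF6+ (log2 1.64, adjusted p = 0.000149). Ifngr2, its signalling partner, fell in both (log2 -2.48 and -1.82, adjusted p = 3.88e-05 and 0.000205). Jak1, a receptor-bound kinase, had 201 and 190 CPM in the DKO libraries against 58.0 ± 6.26 in WT CXCR6+ and 79.4 ± 3.61 in WT SLAMF6+ (log2 1.79 and 1.26, adjusted p = 1.62e-06 and 2.42e-05).

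Within WT, 5 of these 9 genes were lower in CXCR6+ (among them Ifngr1, Ifngr2, Jak1 and Irf1) and 2 higher (Jak2 and Socs1). Over all genes, 17.7% were lower there and 15.6% higher. Ifngr2 averaged 20.7 ± 3.85 CPM in WT CXCR6+ and, in WT SLAMF6+, 39.5 ± 2.60 CPM (log2 -0.93, adjusted p = 0.000149). Jak2 averaged 47.3 ± 3.25 CPM in WT CXCR6+ and, in WT SLAMF6+, 24.4 ± 1.97 CPM (log2 0.95, adjusted p = 7.01e-06). Ifng itself passed in none of the 3 comparisons, and its spread within a subset was larger than its mean (9.36 ± 11.3 CPM in WT CXCR6+ and, in WT SLAMF6+, 16.4 ± 19.98 CPM).

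The next list held 9 measured genes for the enzymes that prepare peptides and for the ligases that turn class II over. Of these, 5 were lower in WT CXCR6+ (Ctss, Ctsb, Ctsd, Ctsz and Lgmn), where 17.7% of all genes were lower. The call was lost under 16 of 27 alternatives for Lgmn, 7 of 28 for Ctsd, 2 of 28 for Ctsz and, with 2-fold required, 1 of 28 for Ctsb. Ctss, the protease that trims the invariant chain in presenting cells, averaged 37.4 ± 3.86 CPM in WT CXCR6+ and, in WT SLAMF6+, 63.2 ± 3.86 CPM (log2 -0.76, adjusted p = 3.42e-05); with GC content and length corrected for, its log2 fold change was 0.02 (adjusted p = 0.894). In the DKO comparisons Ctss was higher (80.6 CPM in DKO CXCR6+, log2 1.11, adjusted p = 7.09e-05; 115 CPM in DKO SLAMF6+, log2 0.86, adjusted p = 0.000449). Ctsz, another lysosomal protease, was lower in both (41.0 and 50.5 CPM, against 229 ± 22.8 in WT CXCR6+ and 325 ± 17.1 in WT SLAMF6+, log2 -2.48 and -2.68, adjusted p = 9.93e-07 and 7.18e-07). In all 2 of the 9 were higher and 3 lower in DKO CXCR6+, where 28.7% of all genes passed. In DKO SLAMF6+ 2 were higher and 2 lower, where 31.1% of all genes passed.

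Costimulatory ligands of presenting cells gave 0 calls among 6 genes within WT by edgeR's quasi-likelihood test, where 33.3% of all genes passed. DESeq2's Wald test gave 0 calls as well. Of the 6, 1 gene, Cd40, had an unadjusted edgeR p under 0.05 (log2 -0.63, adjusted p = 0.0959) and was called by limma-voom. Cd40 had 0.578 CPM in DKO CXCR6+ and, in DKO SLAMF6+, 1.303 CPM, against 12.8 ± 5.82 in WT CXCR6+ and 19.9 ± 4.24 in WT SLAMF6+, and was lower in both (log2 -4.44 and -3.92, adjusted p = 0.000604 and 0.000892). Pdcd1lg2, an inhibitory ligand, was lower in both as well (log2 -2.12 and -2.90, adjusted p = 0.000405 and 7.62e-05). Icosl was the 1 gene of the 6 that was higher in DKO CXCR6+ and in DKO SLAMF6+ (7.40 and 7.39 CPM against means of 0.723 in WT CXCR6+ and 0.940 in WT SLAMF6+).

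**Figure D4:**
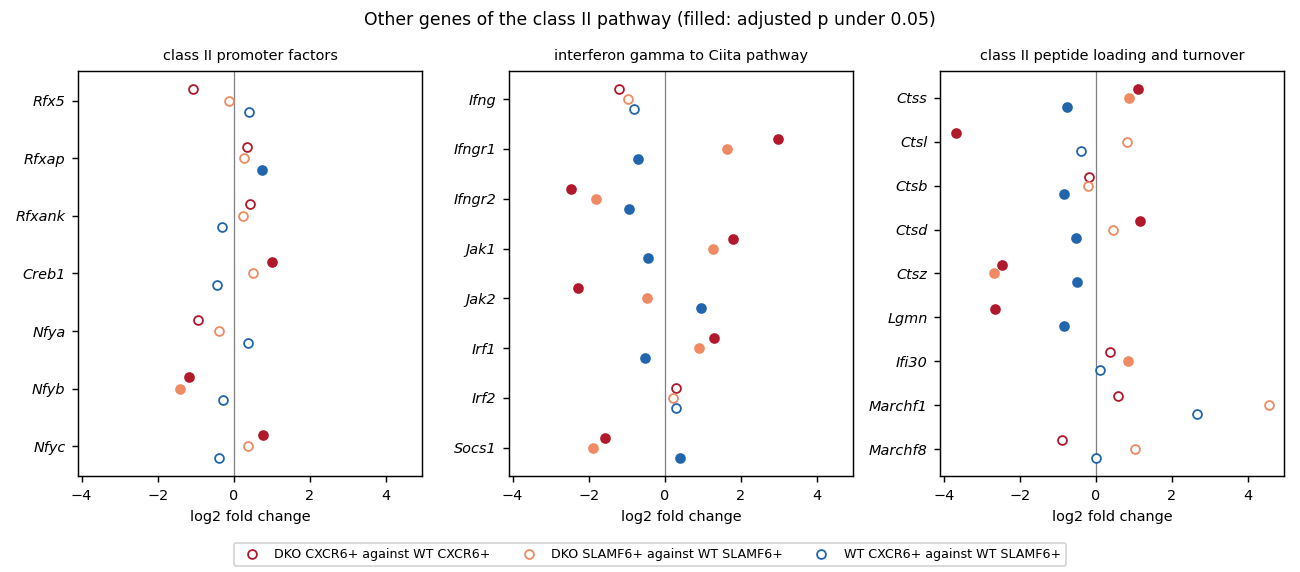
log2 fold changes of the tested promoter factors (left), 8 of the 9 interferon gamma pathway genes (middle) and peptide loading and turnover genes (right) in the same 3 comparisons, with filled points for adjusted p under 0.05; Lgmn in DKO SLAMF6+ is left out because it had 0 counts there. Ifngr1 lies at 2.98 and 1.64 and Ctsz at -2.48 and -2.68 in the DKO comparisons.

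Because class II is typical of other cell types, markers of those types were read in the same libraries. In the WT libraries several of these markers were at or near 0. Itgax, Xcr1, Clec9a, Cd209a and Clec10a of dendritic cells reached at most 0.791 CPM. Ms4a1 and Pax5 of B cells reached at most 0.558 CPM, and Tyrobp, Lyz2 and Itgam of myeloid cells at most 1.03 CPM. H2-Ab1 was at 51.6 CPM or more in each of the same libraries. The part of other cell types in the class II counts of the WT libraries was not tested. The summed dendritic cell list ran from 155 to 242 CPM in WT CXCR6+ and from 315 to 365 CPM in WT SLAMF6+, with 4 to 6 and 3 to 5 of its 10 genes at 0, and was carried by Batf3 (177 and 313 CPM on average), which T cells also use. The B cell list summed to 42.9 to 55.5 CPM in WT CXCR6+ and 57.8 to 68.5 CPM in WT SLAMF6+, carried by Ebf1 and Fcmr, and the microglia and macrophage list to 28.7 to 56.6 and 74.4 to 95.7 CPM, of which Tmem119 made up 2.88 and 18.01 CPM on average.

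In the DKO libraries markers of other cells were present. Tyrobp, a signalling adaptor of myeloid and natural killer cells, had 33.6 CPM in DKO CXCR6+ and, in DKO SLAMF6+, 171 CPM, and Itgax had 12.6 and 15.1 CPM. DKO SLAMF6+ held Siglech (24.3 CPM), Xcr1 (16.5 CPM), Clec9a (8.83 CPM), Csf1r (13.0 CPM) and Aif1 (18.3 CPM), of which Siglech, Xcr1 and Aif1 were at 0 in DKO CXCR6+. DKO CXCR6+ held Cd209a (13.0 CPM), Lyz2 (10.4 CPM) and the neutrophil genes S100a8 (498 CPM) and S100a9 (426 CPM). Other dendritic, microglia and macrophage markers went the other way. Flt3, Batf3, Irf8, Aif1, Cd68 and P2ry12 were lower in DKO CXCR6+, and Batf3, Tmem119 and P2ry12 were lower in DKO SLAMF6+.

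Over the whole lists, 3 dendritic cell genes were higher and 3 lower in DKO CXCR6+ and 4 higher and 1 lower in DKO SLAMF6+, of 10 tested. Of 13 microglia and macrophage genes tested, 3 were higher and 3 lower in DKO CXCR6+ and 7 higher and 2 lower in DKO SLAMF6+. Over all genes, 12.8% were higher and 15.9% lower in DKO CXCR6+, and 13.5% higher and 17.5% lower in DKO SLAMF6+. The microglia and macrophage list summed to 99.6 and 275 CPM in DKO CXCR6+ and DKO SLAMF6+, with 8 and 3 of its 16 genes at 0. The dendritic cell list summed to 36.4 and 110 CPM, with 2 and 0 of its 10 genes at 0.

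The neutrophil list summed to 929 CPM in DKO CXCR6+ and, in DKO SLAMF6+, 96.3 CPM, against at most 3.79 CPM in any WT library. In DKO CXCR6+ this list was carried by S100a8 (498 CPM) and S100a9 (426 CPM). It had 3 of its 8 genes at 0 in each DKO library. Of its 8 genes, 2 and 4 were higher in these DKO libraries, against 12.8% and 13.5% of all genes. All 6 erythroid genes tested were higher in DKO SLAMF6+, where they summed to 143800 CPM against 2.66 CPM in DKO CXCR6+. The B cell list summed to 5.90 and 1.88 CPM, below every WT library, with 4 of its 9 genes at 0 in each; of 4 genes tested, 1 was higher and 2 lower (Ebf1 and Fcmr, at 0 counts) in DKO CXCR6+, and the same 2 were lower in DKO SLAMF6+. The higher gene was Cd79b, a subunit of the B cell receptor complex, with 4.86 CPM in DKO CXCR6+ against a mean of 0.251 in WT CXCR6+ (log2 4.21, adjusted p = 0.0276), most of the list's sum there. Ms4a1 and Pax5 were at 0.116 CPM or less in both. The CNS cell list summed to 59.6 and 47.4 CPM, against 18.3 to 22.1 in WT CXCR6+ and 23.6 to 26.4 in WT SLAMF6+, and in the DKO libraries nearly all of it was Mbp. The part of these cell types in the higher H2-Aa, H2-Eb1, H2-Ab1 and Cd74 of the DKO libraries was not tested.

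T cell genes were well expressed in every library. Their list summed to 7433 CPM in DKO CXCR6+ and 8506 in DKO SLAMF6+, below every WT library. The WT sums ran from 22060 to 33680 CPM in WT CXCR6+ and from 32680 to 39120 CPM in WT SLAMF6+. Trbc2 carried the WT sums, with means of 23250 CPM in WT CXCR6+ and 30020 in WT SLAMF6+. In DKO CXCR6+ and DKO SLAMF6+ Trbc2 had 1797 and 2026 CPM. Cd3e had 578 and 544 CPM in DKO CXCR6+ and DKO SLAMF6+, against means of 160 CPM in WT CXCR6+ and 233 in WT SLAMF6+. Of the 10 T cell genes, 6 were higher in each DKO library, against 12.8% of all genes in DKO CXCR6+ and 13.5% in DKO SLAMF6+. The constant gene segments Trac and Trbc2 were the 2 that were lower.

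**Figure D5:**
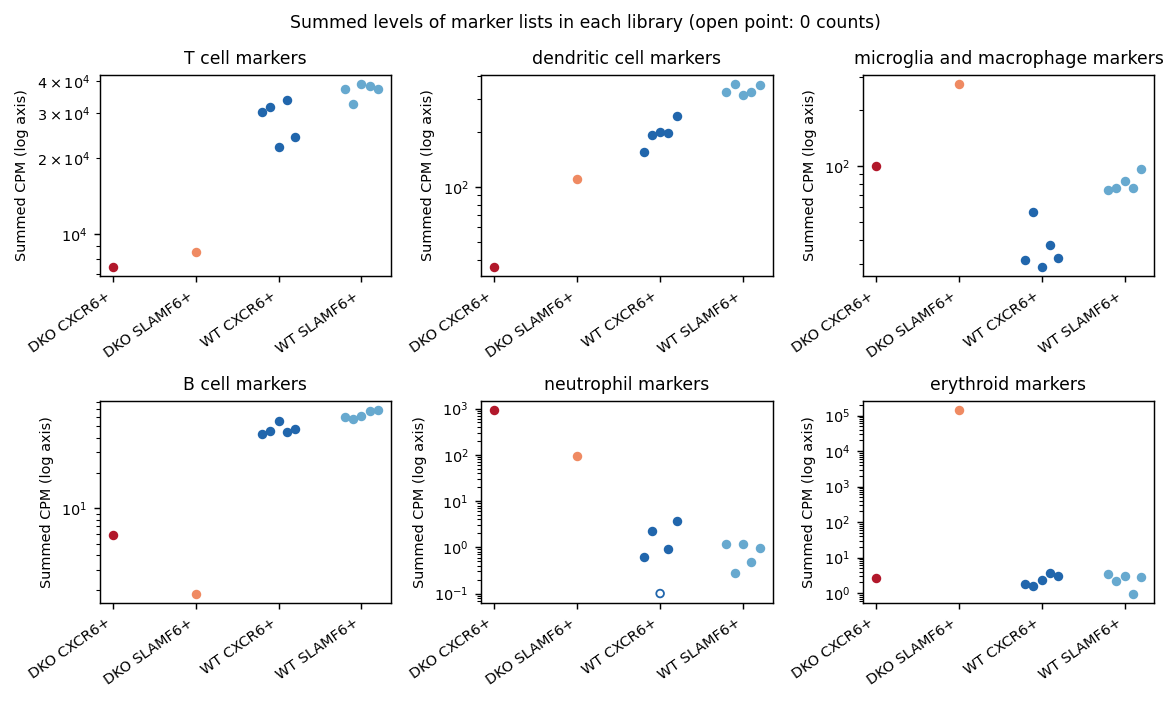
Summed CPM of 6 marker lists in every library on log axes, with an open point for the WT CXCR6+ library with 0 neutrophil counts. Neutrophil markers stand at 929 (nearly all S100a8 and S100a9) and 96.3 CPM in the DKO libraries against 3.79 CPM or less in WT. Erythroid markers stand high in DKO SLAMF6+ alone, and T cell markers stand below every WT library in both DKO libraries.

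The genes whose profile over the 12 libraries lay nearest to the mean profile of the 7 members, by root mean square difference of centred log2(CPM + 1) values, were Isca1 (0.24), Ebag9 (0.27), Gpx1 (0.29), Cat (0.33), Dcaf12 (0.34), Scp2 (0.34), Sh3kbp1 (0.36) and Nudt16l1 (0.36). The mean profile includes Ciita, which entered only through the DKO libraries, so this likeness is a description and supports no difference. Isca1, an iron-sulfur cluster assembly gene on chromosome 13, had 30.2 CPM in DKO CXCR6+, 111 in DKO SLAMF6+, 19.9 ± 3.19 in WT CXCR6+ and 35.2 ± 2.25 in WT SLAMF6+. Among the 21565 genes the members themselves ranked 17 (Cd74), 18 (H2-Ab1), 999 (Ciita), 9828 (H2-DMa), 10846 (H2-Eb1), 14961 (H2-DMb1) and 17949 (H2-Aa) by the same measure, so that only Cd74 and H2-Ab1 lay close to the mean of the set.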

How the data were processed

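The 12 libraries were made with SMART-Seq2 and Nextera XT, which do not mark strand, and read as pairs on an Illumina NextSeq, per the labels' protocols. The deposited values are expected counts per gene symbol, held as whole numbers and not scaled; STAR 2.7.7a, RSEM 1.3.3 and mm10 are named in the submitters' processing notes, and the annotation version is not given in the sources used here.

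From these counts, genes were filtered with filterByExpr (21565 kept), scaled by TMM and tested with edgeR 4.0.16 (R 4.3.3) by the quasi-likelihood test in a single fit of all 4 groups with 8 residual degrees of freedom; p-values were adjusted by Benjamini-Hochberg over all genes kept, with a threshold of 0.05. CPM used TMM-scaled library sizes. The DKO pair was given as a log2 ratio with a prior count of 2. Coordinates and lengths came from GENCODE M21. Scalings, filters, limma 3.58.1, DESeq2 1.42.0, offsets, blocks and left-out libraries were tried as alternatives. Replicate numbers did not pair the WT libraries.

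All members were described. From each other list, counts and up to 4 genes by smallest p were named (2 from WT, 2 from DKO), with every other class II gene of the region and the 8 genes most like the members' mean profile among those with at least 5 CPM on average; a few further genes (among them Rfxap, Nfyc, Ifngr2, Ifng and Icosl) and the markers given singly were chosen after their values were seen. The members and lists were chosen with earlier results of these data known. A few genes of the lists are counted but not reported by name here.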

Additional observations from a re-analysis of the deposited data

Results flagged for a closer look

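In WT CXCR6+ replicate 3, H2-DMb1 was at 32.4 CPM, far above the other 4 libraries of its group, with a gap of 0.715 of the group's range; this was the 1 such value among 14 groups of 5 libraries checked, and chance gives about 1 in 20. The genotype difference of H2-Ab1 differed between CXCR6+ and SLAMF6+ cells by a log2 of -1.41 (edgeR interaction, adjusted p = 0.0499). That of H2-DMb1 differed by -1.66 (adjusted p = 0.0272). Each interaction rests on 1 DKO library per subset.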

How the results depend on the processing

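The number of members called stayed between 4 and 6 of 7 in WT CXCR6+ against WT SLAMF6+ and in both DKO comparisons under every alternative that was run, and was 5, 5 and 5 to 6 when libraries were left out. The interaction was less stable: instead of 2 members, 1 was called with limma-voom, with no filter on low counts, without receptor, immunoglobulin, mitochondrial, ribosomal protein and haemoglobin genes, with the fixed replicate block (1) and with the random replicate block (1); 0 were called with the mt-Ts1 split as a term, 0 to 2 with libraries left out, and at most 3 under any alternative. The cause was not tested.

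The WT log2 fold change of H2-DMb1 turned sign to 0.01 with DESeq2 size factors and with its Wald test, 0.23 with a 10 CPM filter, 0.10 with only the groups compared, 0.52 with offsets for GC content and length (adjusted p = 0.0377) and 0.50 with offsets and the fixed replicate block (adjusted p = 0.0231); with libraries left out it ran from -0.19 to 0.04. In DKO SLAMF6+ H2-DMb1 was 0.14 with offsets. Ciita within WT was 0.06 with limma-voom, with and without the random replicate block, and -0.58 to 0.48 with libraries left out; its interaction was 0.02 with the mt-Ts1 term. In DKO SLAMF6+ Ciita, which entered the test only through the DKO libraries, passed without WT CXCR6+ replicate 4 (adjusted p = 0.041) or WT SLAMF6+ replicate 2 (0.0421), by limma-voom (0.00243) and by the Wald test (0.047). H2-Aa within WT was -1.43 with offsets and the block (adjusted p = 0.0724). H2-DMa was under 2-fold in all 3 comparisons. Cd74 gained an interaction call by DESeq2's Wald test (-0.93), with the 10 CPM filter (-1.13), with offsets (-1.22) and without WT SLAMF6+ replicate 4 (-0.77, adjusted p = 0.048).

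Over all genes, requiring 2-fold left 2841 of 7179 calls within WT, and offsets with the block left 802 of 2221 interaction calls. The share of calls that were higher was 46.8% within WT and 65.3% with offsets, where the median of all genes was 0.304 against 0.127. For DKO CXCR6+ it was 44.6%, and 62.9% with limma-voom. For DKO SLAMF6+ it was 43.5%, and 61.9% with limma-voom and 61.3% with offsets. Same-numbered WT libraries had correlations of -0.012 to 0.029, so the numbers were not taken as pairs; 2 of 5 libraries matched best with their own number. The fixed block could not be fitted for the DKO comparisons, and H2-Aa and Ciita were not tested at the 10 CPM filter. Depth limits Ciita, and H2-Aa in WT CXCR6+; with 1 DKO library per subset, spread within DKO is unknown.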
